A study of Mus musculus with 18 samples.

Results

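Integrins are the cell's main receptors for the extracellular matrix, and focal adhesion proteins are the proteins that gather on their cytoplasmic tails. This group of 45 genes holds 12 integrin subunits, 6 proteins that bind integrin tails or talin, 6 of the ILK-PINCH-parvin module, 8 that link the adhesion to actin and 13 kinases and scaffolds. The genes were chosen by name for what they encode, with earlier results of these data known. A row was found for 42 of the 45 among the 12012 genes of the table; *Ilk*, *Lims2* and *Tns2* had none and were not analysed here.

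The libraries come from primary cultures of E18.5 mouse hippocampus, labelled as neurons, from *Fibcd1* WT mice and from KO mice that carry the *Fibcd1* -/- genotype on a C57BL/6J background. Fibcd1 is a membrane receptor that binds glycosaminoglycans, the sugar chains carried by chondroitin sulphate proteoglycans (CSPGs). Both groups analysed here were plated on a CSPG coating, so the comparison asks how the genotypes differ on that substrate; each group has 4 libraries (WT CSPG A to D and KO CSPG A to D), described by the study as separate preparations of cells. The 18 labelled libraries also include 5 WT, 4 KO and 1 more WT CSPG library, and those were not analysed here, so no value below is a response to CSPGs.

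A heterodimer of 1 alpha and 1 beta integrin subunit binds laminin, fibronectin, vitronectin or another matrix ligand outside the cell. Talin and kindlin bind the beta tail and switch the receptor on, vinculin, alpha-actinin and tensin tie it to actin, and FAK, Src family kinases, paxillin and Cas pass the signal on to Rac and other small GTPases. In hippocampal cultures these proteins act in growth cones, neurite outgrowth and glial spreading, and CSPG coatings are known as substrates that hold back neurite growth.

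Values are normalized counts, in which each library's reads were scaled by a size factor of its own; WT CSPG libraries held 10099564 to 11174615 reads over the genes of the table and KO CSPG libraries 10541445 to 11647202. *Fibcd1* itself had normalized counts of 54.3, 70.4, 60.1 and 182 in WT CSPG A to D and of 0.970, 0.932, 7.16 and 4.74 in KO CSPG A to D (log2 fold change -4.48 ± 0.58 SE, n = 4 per group, limma adjusted p = 0.00599), which goes with the labels. All neuron markers of a list of 16 had a row, but astrocyte, oligodendrocyte lineage and microglia markers were present too (13 of 14, 12 of 14 and 11 of 14 with a row), so the levels below are those of mixed cultures. In such bulk samples fewer cells of a type and less RNA per cell cannot be told apart. The summed level of the oligodendrocyte lineage list was 1546 to 2010 in WT CSPG and 2251 to 2500 in KO CSPG, without overlap, while the neuron (99764 to 105264 and 99001 to 101434), astrocyte (45976 to 55831 and 53193 to 59015), microglia (3111 to 3706 and 3223 to 3941), fibroblast (11875 to 14172 and 11733 to 12495) and mural cell lists (573 to 666 and 611 to 771) overlapped between the groups. The endothelial list had a row for only 1 of its 11 genes. Such sums follow the highest genes of a list. Most of the fibroblast sum was *Vim* (10124 to 12796 in WT CSPG and 10176 to 10649 in KO CSPG). *Col1a1* of that list ran from 25.2 to 147 and from 35.8 to 320. In the neuron list 8 genes had a log2 fold change, KO CSPG over WT CSPG, below 0 and 8 above. Of these 16, 1 had a limma adjusted p under 0.05, *Neurod6* at -0.19, beside 1.77% of autosomal non-pseudogenes lower at that threshold. All 4 Y-linked genes examined were lower in KO CSPG (log2 fold change -0.85 to -0.67), and the sex of the embryos and the genotype cannot be told apart.

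As a group, the adhesion genes differed little between the genotypes. Log2 fold changes, KO CSPG over WT CSPG, lay between -0.28 and 0.35, and a single gene passed the test, *Ptk2b*, which was higher in KO CSPG (limma on log2(value + 1), Benjamini-Hochberg adjusted p under 0.05 over all genes of the table). That is 1 of 42 genes, beside 2.83% of the 11553 autosomal genes that are not pseudogenes; 1.06% of those genes were called higher and 1.77% lower. No adhesion gene was called lower, although 14 of them were lower and 2 higher at an unadjusted p under 0.05, where 8.70% and 7.50% of all counted genes were. The 14 became 8 without KO CSPG C, 9 without WT CSPG C and 16 without KO CSPG B. The 2 became 1 without KO CSPG B or KO CSPG D and 3 without WT CSPG D.

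The small differences leaned to lower values. Of the 42 genes, 31 had a log2 fold change below 0 and 11 above (73.8% below, against 50.1% of all counted genes), with a median of -0.06 against -0.00. With upper-quartile scaling 29 of 42 lay below 0 and the median was -0.05. In 8 of the 42 genes the 4 WT CSPG libraries did not overlap the 4 KO CSPG libraries, beside 9.24% of all counted genes. Of these, 7 were lower in KO CSPG, *Itgb2*, *Tln1*, *Vcl*, *Actn1*, *Actn4*, *Ptk2* and *Fyn* (background 5.20%), and 1 was higher, *Ptk2b* (background 4.04%). The adhesion genes had a higher median level than all counted genes (545 against 422 normalized counts) and a smaller median SD within groups (0.07 against 0.08 on the log2 scale), and the part of either in the counts above was not tested.

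**Figure D1:**
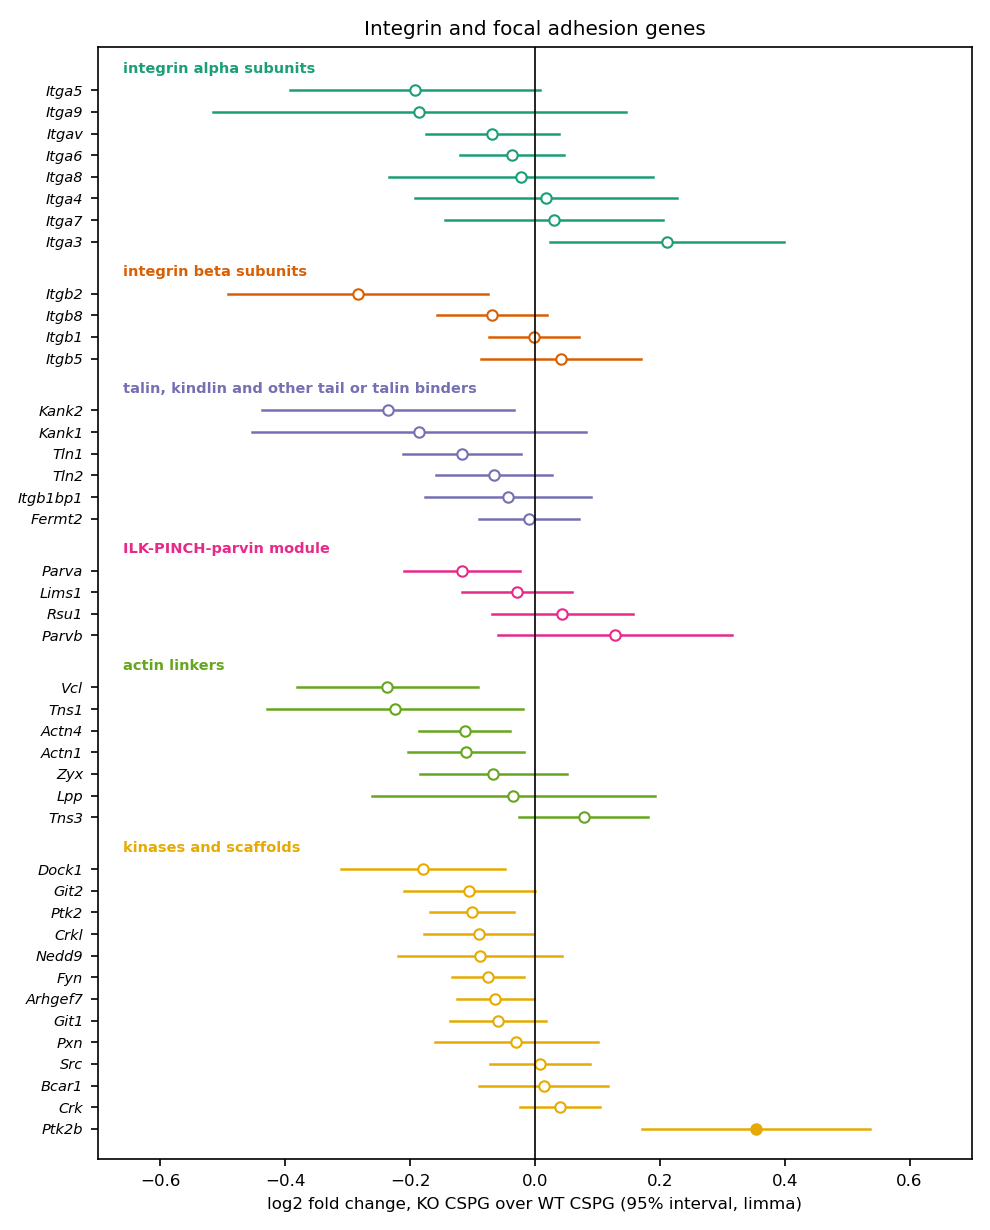
Log2 fold change of the 42 genes, KO CSPG over WT CSPG, by role; points are limma estimates from 4 libraries per group, lines are 95% intervals, and the filled point has an adjusted p under 0.05. Most points lie left of 0 within -0.28 to 0.35, and only *Ptk2b* is filled.

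**Figure D2:**
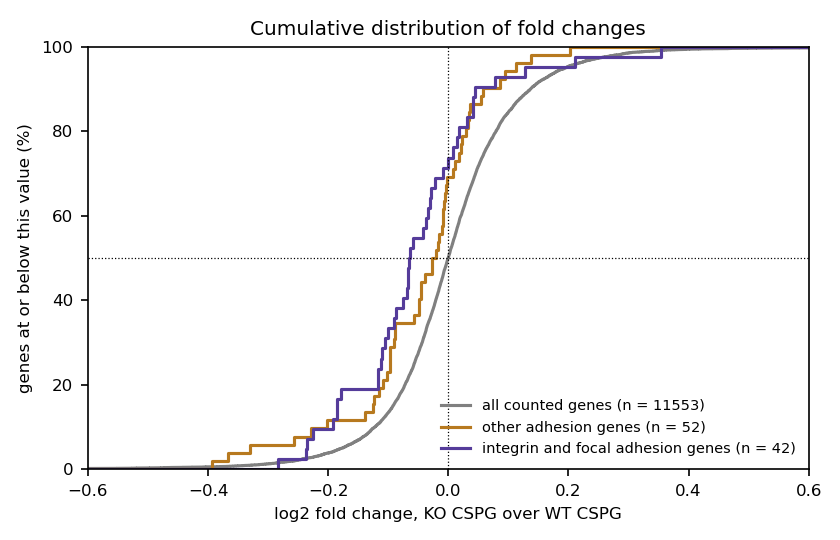
Percent of genes (y axis) at or below a given log2 fold change, KO CSPG over WT CSPG (x axis), for the 42 integrin and focal adhesion genes, 52 other adhesion genes and all 11553 counted genes; the x axis is drawn from -0.6 to 0.6. The adhesion genes cross 50% at -0.06 and all counted genes at -0.00.

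The 12 integrin subunits differed widely in level. A subunit without a row is not thereby absent, and in mixed cultures the subunits may sit in different cells. Per kb of gene model, mean levels in WT CSPG spanned 62.9-fold. *Itgb1*, the beta subunit shared by most laminin, collagen and fibronectin receptors, was at 577 normalized counts per kb, above *Itga6*, a laminin receptor subunit, at 159. *Itgb8* and *Itgb5*, which both pair with alpha v, followed at 128 and 119, and *Itgav* itself was at 56.2. The leukocyte subunit *Itgb2* was at 45.1, *Itga7* (laminin) at 41.0, *Itga5* (fibronectin) at 33.7, *Itga3* (laminin) at 28.9, *Itga8* at 13.9, *Itga9* at 9.83 and *Itga4* (VCAM-1 and fibronectin) at 9.18. These levels divide by the length the table gives for each gene, so they understate genes with long, rarely used exons. For *Itga7* that length was 4013 bases, where the exons of the GENCODE annotation hold 8087. For *Itga5* it was 4442, where they hold 4933. The places of these genes in the order therefore depend on the length used.

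Some neighbours in this order did not differ beyond their spread. *Itgb8* was above *Itgb5* in 5 of 8 libraries, *Itgb2* above *Itga7* in 3 of 8 and *Itga9* above *Itga4* in 4 of 8. *Itga5* was above *Itga3* in 5 of 8, and the libraries in which it was not were all KO CSPG. At the lengths used here, these 2 genes did not overlap in WT CSPG (31.4 to 37.2 against 25.3 to 30.7 per kb). In KO CSPG they overlapped (25.5 to 33.2 against 30.3 to 38.7). *Itga8* was above *Itga9* in 7 of 8. The other neighbours kept their order in 8 of 8 libraries.

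**Figure D3:**
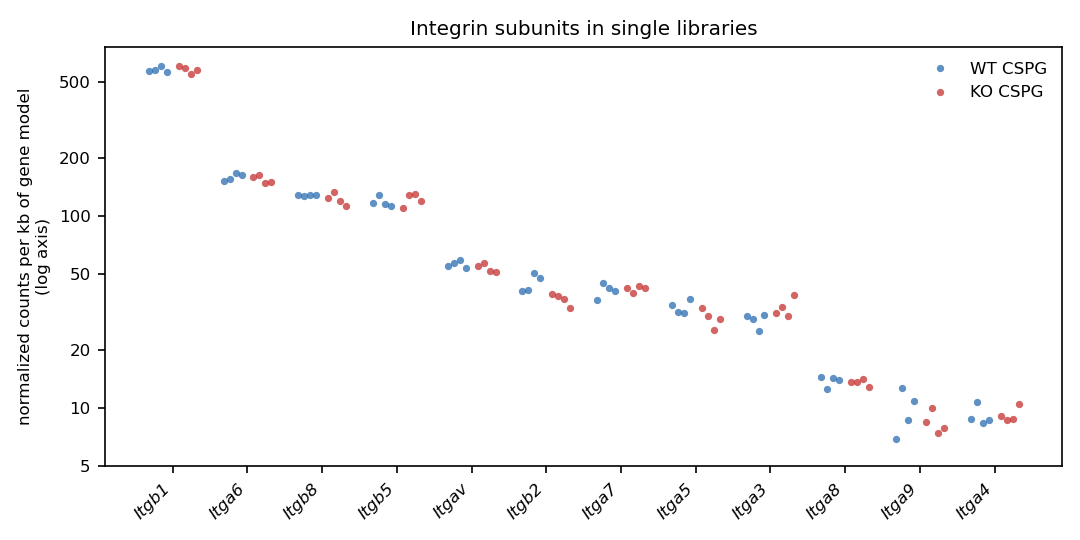
Normalized counts per kb of gene model (log axis) of the 12 integrin subunits in the single libraries, ordered by the mean in WT CSPG; points from left to right within a colour are libraries A to D. *Itgb1* stands above all others at about the same level in both genotypes, and for *Itgb2* the WT CSPG points lie above the KO CSPG points.

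None of the 8 alpha subunits passed the test, and in all 8 the libraries of the genotypes overlapped; 5 were below 0 and 3 above, with a median log2 fold change of -0.03. *Itga6* had normalized counts of 1369, 1406, 1502 and 1471 in WT CSPG A to D and 1441, 1471, 1343 and 1349 in KO CSPG A to D (log2 fold change -0.04, 95% interval -0.12 to 0.05). *Itgav*, the partner of *Itgb5* and *Itgb8*, had 590.4, 613, 635 and 578 against 589, 615, 555 and 547 (-0.07, -0.17 to 0.04). In both genes the libraries of the genotypes were interleaved.

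The 2 fibronectin and laminin receptor subunits *Itga5* and *Itga3* had the alpha subunits' most negative and most positive estimates. *Itga5* had normalized counts of 153, 141, 139.7 and 165 in WT CSPG and 147, 134, 113 and 129 in KO CSPG (log2 fold change -0.19 ± 0.10 SE, limma adjusted p = 0.340). *Itga3* had 173, 167, 145 and 175 in WT CSPG and 179, 193, 173 and 221 in KO CSPG (0.21 ± 0.09 SE, limma adjusted p = 0.234). WT CSPG C was the lowest library for *Itga3* and KO CSPG D the highest, and the groups met at 173 to 175.

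The other 4 alpha subunits were low and their differences were small beside their spread. *Itga7* had normalized counts of 147, 179.8, 169 and 163 in WT CSPG and 169.7, 160.4, 173 and 169 in KO CSPG (log2 fold change 0.03). *Itga4* had 123, 152, 117 and 121 against 127, 121, 124 and 147 (0.02), its highest library in WT CSPG being B and in KO CSPG D. *Itga8*, a receptor subunit for nephronectin, had 108, 93.1, 106 and 103 against 101, 101, 105 and 95.7 (-0.02). For *Itga9*, a tenascin-C receptor subunit, the values were 53.3, 98.5, 66.9 and 83.6 against 65.0, 77.4, 57.2 and 60.7 (-0.19), and its interval of -0.52 to 0.15 was the widest of the 12 subunits.

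Of the 4 beta subunits, none passed the test, and *Itgb2* alone was without overlap between the genotypes. *Itgb1* (chromosome 8, 128685654 to 128733200, plus strand, mm10) had normalized counts of 2325, 2354, 2466 and 2280 in WT CSPG and 2445, 2403, 2233 and 2339 in KO CSPG. Its means were 2356 ± 79.5 and 2355 ± 92.5 (SD, n = 4 each), and the 95% interval of its log2 fold change ran from -0.07 to 0.07. *Itgb8*, which with alpha v activates latent TGF-beta, had 1423, 1404, 1425 and 1419 in WT CSPG, an SD of 9.68, and a wider 1369, 1480, 1318 and 1249 in KO CSPG (-0.07, -0.16 to 0.02). *Itgb5*, of the vitronectin receptor, had 394, 433, 389.9 and 379 against 371, 434, 436 and 404 (0.04, -0.09 to 0.17).

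*Itgb2* (chromosome 10, 77530252 to 77565708, plus strand) is the beta subunit of leukocyte integrins and in brain is known from microglia. Its normalized counts were 124, 126, 155 and 146 in WT CSPG and 120.2, 117, 112 and 101 in KO CSPG, so that the lowest WT CSPG library was just above the highest KO CSPG library. The log2 fold change was -0.28 ± 0.10 SE, the most negative of the 42 genes, and did not pass (limma adjusted p = 0.137). Of the 11 microglia markers with a row, 9 were above 0 and 0 were called. Their log2 fold changes ran from -0.12 to 0.24, with a median of 0.06. At an unadjusted p under 0.05 by limma, 4 were higher and 0 lower, where 7.50% and 8.70% of all counted genes were. Their part in the difference of *Itgb2* was not tested. *Itgam*, *Itgal* and *Itgax*, the alpha partners of *Itgb2*, had no row.

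The proteins that bind integrin tails or talin all had estimates below 0, 6 of 6, with a median log2 fold change of -0.09; none passed the test. *Tln1*, the talin of most cells and the adaptor that activates integrins, had normalized counts of 742, 782, 808 and 739.9 in WT CSPG and 683, 728, 695 and 726 in KO CSPG. The groups did not overlap, WT CSPG D at 739.9 being next to KO CSPG B at 728, and the log2 fold change was -0.12 ± 0.05 SE (limma adjusted p = 0.184). *Tln2*, the second talin, was at 960.3, 1003, 915 and 884 against 876, 897, 873 and 945 (-0.07), with overlap. *Fermt2*, which encodes kindlin-2 and had the highest level per kb of these 6 at 277, was at 1019, 1036, 1034 and 1066 against 1067, 1004, 1017 and 1040 (-0.01, 95% interval -0.09 to 0.07). *Kank2* (-0.24) and *Kank1* (-0.19), whose products join talin to the cortex around the adhesion, and *Itgb1bp1* (-0.04), whose product competes with talin for the beta 1 tail, overlapped between the groups. About 3.67% of the exonic bases of *Tln1* and 11.5% of those of *Itgb1bp1* lie opposite exons of *Creb3* and *Asap2*. Because the strand setting of the counting is not known, reads there cannot be told apart. For *Itgb1bp1* the GENCODE exons hold 3490 bases and the deposited gene model 3321.

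Vinculin is the talin binder that recruits actin, and its gene is a known target of serum response factor, which binds the CArG box. A CArG box was searched on both strands from 250 bases before to 50 after the start of each gene (RefSeq, GRCm38.p6), and 36 of the 45 genes had such a window. It stood in 3 of the 36 genes (8.33%), counting any window of a gene, and in 1.63% of all 32851 promoters, counted window by window. These 3 are shown so that the differences of their genes can be read beside them, 5′ to 3′ on the strand of the gene, with the box in capitals:
Vcl, chr14:20929148-20929447, plus strand: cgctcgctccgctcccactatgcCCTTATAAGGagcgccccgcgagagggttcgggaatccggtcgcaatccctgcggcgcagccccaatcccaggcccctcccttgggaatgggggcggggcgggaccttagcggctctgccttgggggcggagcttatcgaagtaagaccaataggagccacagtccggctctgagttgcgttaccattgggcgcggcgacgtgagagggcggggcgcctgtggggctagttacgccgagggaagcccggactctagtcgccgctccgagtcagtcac
Fermt2, chr14:45530016-45530315, minus strand: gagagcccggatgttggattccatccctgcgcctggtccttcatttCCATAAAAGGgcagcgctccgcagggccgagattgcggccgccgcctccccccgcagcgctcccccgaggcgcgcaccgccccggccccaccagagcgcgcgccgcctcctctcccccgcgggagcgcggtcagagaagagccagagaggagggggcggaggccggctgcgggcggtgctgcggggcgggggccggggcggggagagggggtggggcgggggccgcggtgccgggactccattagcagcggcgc
Rsu1, chr2:13271366-13271665, minus strand: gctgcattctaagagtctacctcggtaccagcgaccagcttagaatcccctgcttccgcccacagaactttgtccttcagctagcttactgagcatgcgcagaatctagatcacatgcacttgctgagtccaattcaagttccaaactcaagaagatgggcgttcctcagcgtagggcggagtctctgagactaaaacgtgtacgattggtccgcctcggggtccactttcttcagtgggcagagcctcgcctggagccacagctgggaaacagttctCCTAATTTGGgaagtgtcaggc
The box began at base 24 of the window for *Vcl*, at base 47 for *Fermt2* and at base 279, after the start site, for *Rsu1*. Their 3 genes had log2 fold changes of -0.24, -0.01 and 0.04, and 0 of the 3 passed the test. The TEAD motif GGAATG, searched on both strands as well, stood in 5 of the 36 genes (13.9%, *Itgb1*, *Vcl*, *Actn4*, *Lpp* and *Dock1*) and in 14.7% of all promoters. For both motifs the shares are counted by gene and by promoter, so they are not in the same unit.

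Of the actin linkers, 6 of 7 were below 0 with a median log2 fold change of -0.11, and 3 of 7 were without overlap between the groups, all lower in KO CSPG (background 5.20%); 0 of 7 passed the test. *Vcl* (chromosome 14, 20929433 to 21033673, plus strand) had normalized counts of 260.2, 259.9, 259 and 239 in WT CSPG and 221, 225, 201 and 217 in KO CSPG. Every WT CSPG library was above every KO CSPG library, with means of 255 ± 10.1 and 216 ± 10.3 (SD, n = 4 each) and a log2 fold change of -0.24 ± 0.07 SE (limma adjusted p = 0.0706). Without WT CSPG D, the lowest of its group and so the nearest to KO CSPG, *Vcl* passed (-0.27, limma adjusted p = 0.0418). That fit called 550 of all counted genes in place of 327. Of the exonic bases of *Vcl* in the GENCODE annotation, 25.6% lie opposite exons of *Ap3m1*, and reads there cannot be told apart. These exons hold 8153 bases and the deposited gene model 5229, so the share of counted bases is not known.

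The 2 alpha-actinins, which crosslink actin filaments at the adhesion, were both lower by about the same amount. *Actn4*, the actin linker with the highest level per kb (252), had normalized counts of 1578, 1481, 1563 and 1561 in WT CSPG and 1419, 1419, 1456 and 1424 in KO CSPG, a log2 fold change of -0.11 ± 0.04 SE (limma adjusted p = 0.0862). *Actn1* had 808, 831, 887 and 811 against 774, 786, 731 and 800.1, with KO CSPG D close below WT CSPG A (-0.11 ± 0.05 SE, limma adjusted p = 0.215). Neither passed. Exons of another gene on the opposite strand cover 5.16% of the exonic bases of *Actn4* and 6.56% of those of *Actn1*. For *Actn1* the GENCODE exons hold 5533 bases and the deposited gene model 3805, so its share of counted bases is not known. The tensin genes went separate ways without passing: *Tns1* had a log2 fold change of -0.22 (limma adjusted p = 0.253) and *Tns3* of 0.08 (limma adjusted p = 0.482). *Zyx*, the LIM protein that marks mature adhesions, was at -0.07, and its relative *Lpp* at -0.03.

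The ILK-PINCH-parvin module, a complex of a pseudokinase and its adaptors, had 4 genes in the table, 2 on either side of 0, and none passed. *Lims1*, which encodes PINCH1 and was the highest per kb of the 4 (190.0), had normalized counts of 954, 921, 938 and 905 in WT CSPG and 956, 907, 855 and 927 in KO CSPG (log2 fold change -0.03, 95% interval -0.12 to 0.06). *Parva*, which encodes alpha-parvin, had 959, 913, 979 and 859 against 849, 845, 888 and 834. Only WT CSPG D fell within the range of KO CSPG, and the log2 fold change of -0.12 ± 0.05 SE did not pass (limma adjusted p = 0.175). Without WT CSPG D *Parva* passed (-0.15, limma adjusted p = 0.0494), in a fit that called 550 of all counted genes in place of 327. *Parvb* was at 0.13 and *Rsu1*, whose product binds PINCH1, at 0.04.

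**Figure D4:**
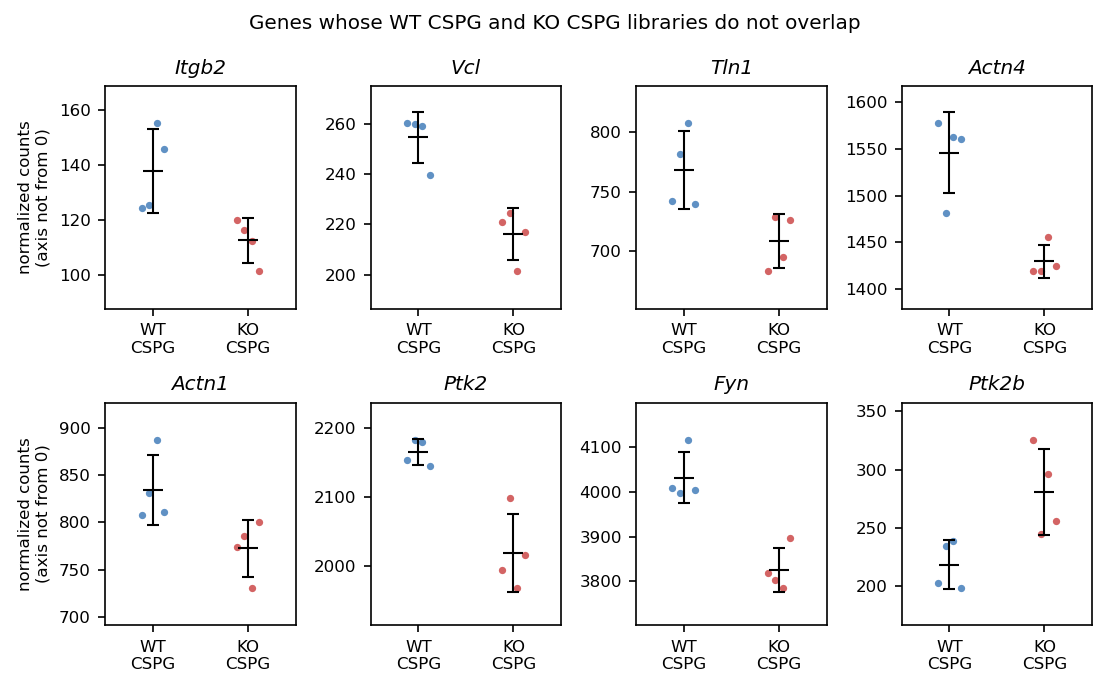
Normalized counts in the single libraries of the 8 genes whose WT CSPG and KO CSPG libraries do not overlap; points from left to right are libraries A to D, horizontal lines are means, bars are SDs, n = 4 per group, and the axes do not start at 0. In 7 panels every KO CSPG point is below every WT CSPG point, and for *Ptk2b* every KO CSPG point is above.

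Among the kinases and scaffolds, 9 of 13 were below 0 (median log2 fold change -0.06), and the group held the only gene that passed. *Ptk2b* (ENSMUSG00000059456, chromosome 14, 66153257 to 66281052, minus strand) encodes Pyk2, the calcium-responsive relative of FAK that is abundant in forebrain neurons. It had normalized counts of 203, 235, 239 and 199 in WT CSPG and 326, 245, 296 and 256 in KO CSPG. The highest WT CSPG library, C, was just under the lowest KO CSPG library, B, and the means were 219 ± 20.9 and 281 ± 37.2 (SD, n = 4 each). The log2 fold change was 0.35 ± 0.09 SE, or 27.9% more in KO CSPG (95% interval 12.7% to 45.1%; limma adjusted p = 0.0281). No exon of another gene overlaps those of *Ptk2b*. The call rested on single libraries: the adjusted p by limma was 0.10 without WT CSPG A, 0.0522 without WT CSPG D, 0.127 without KO CSPG A and 0.108 without KO CSPG C, with log2 fold changes from 0.28 to 0.33. It was 0.177 with a variance prior without a trend, at an unchanged log2 fold change of 0.35, and 0.724 with the Y-linked covariate, at a larger one of 0.54. The oligodendrocyte lineage list was higher in KO CSPG as well, with *Olig1* and *Olig2* called, and its part in the difference of *Ptk2b* was not tested.

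FAK itself pointed the other way. *Ptk2*, which encodes FAK, the kinase that integrin clustering activates, had normalized counts of 2154, 2183, 2180 and 2145 in WT CSPG and 1995, 2099, 1969 and 2016 in KO CSPG. The groups did not overlap, and the log2 fold change was -0.10 ± 0.03 SE (95% interval -0.17 to -0.03, limma adjusted p = 0.0970). Within a library, the normalized count of *Ptk2b* divided by that of *Ptk2* was 0.0941, 0.108, 0.109 and 0.0926 in WT CSPG and 0.163, 0.117, 0.151 and 0.127 in KO CSPG. The mean ratio was 0.101 ± 0.00880 in WT CSPG and 0.139 ± 0.0213 in KO CSPG (SD, n = 4 each), 1.38 times as high. Size factors cancel in this ratio. That its groups do not overlap follows from the values of *Ptk2b* and *Ptk2* themselves, which are separated in opposite directions, and adds no evidence to them. In the other 9 pairs of related genes examined this way the groups overlapped; in the talin pair *Tln1* over *Tln2* the means were 0.818 and 0.789, and in the alpha-actinin pair *Actn1* over *Actn4* they were 0.540 and 0.541.

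**Figure D5:**
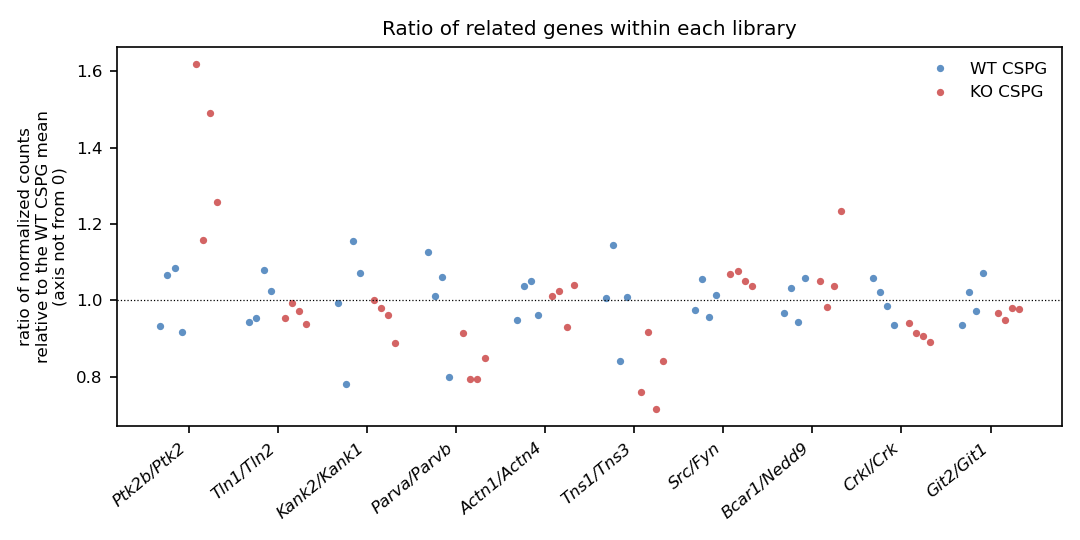
Ratio of normalized counts of 10 pairs of related genes within each library, divided by the mean ratio in WT CSPG (axis not from 0); points from left to right within a colour are libraries A to D. For *Ptk2b* over *Ptk2* all KO CSPG points lie above all WT CSPG points, and in the other 9 pairs the groups overlap.

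The Src family kinases that act with FAK differed in level and little between genotypes. *Fyn*, a Src family kinase of neurons and oligodendrocytes, had the highest level per kb of all 42 genes (924) and normalized counts of 4008, 3996, 4116 and 4003 in WT CSPG and 3819, 3802, 3786 and 3897 in KO CSPG. The groups did not overlap and the log2 fold change of -0.08 ± 0.03 SE did not pass (limma adjusted p = 0.160). *Src* had 1062, 1146, 1069 and 1102 against 1110, 1112, 1080 and 1098, and the 95% interval of its log2 fold change was -0.07 to 0.09. *Crk*, an adaptor that couples Cas and paxillin to Rac activation and the second highest kinase or scaffold gene per kb (536), had 2538, 2519, 2524 and 2561 against 2536, 2709, 2596 and 2594 (0.04, -0.02 to 0.10).

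For the remaining scaffolds the libraries of the genotypes overlapped. *Dock1*, the Rac activator downstream of Crk, had a log2 fold change of -0.18 (95% interval -0.31 to -0.05, limma adjusted p = 0.137). *Crkl* (-0.09), *Git2* (-0.10) and *Arhgef7* (-0.06), of which the last encodes the beta-PIX partner of GIT proteins, were lower at an unadjusted p under 0.05 only. *Git1* was at -0.06 and *Nedd9*, a Cas relative, at -0.09. The core scaffold genes *Pxn* (paxillin, -0.03, 95% interval -0.16 to 0.10) and *Bcar1* (p130Cas, 0.01, -0.09 to 0.12) were near 0.

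How small a difference these libraries bound can be read from the intervals. Of the 41 genes not called, the 95% interval of the change lay within 1.1-fold in either direction for 10, within 1.15-fold for 22 and within 1.25-fold for 33. *Itgb1*, *Itga6*, *Fermt2*, *Src* and *Crk* were among the 10, and *Itga9*, *Kank1* and *Itgb2* were among the 8 outside the widest of these limits.

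Around these 42 genes, 52 of 74 further genes of integrin adhesions had a row, and 3 were called, all lower in KO CSPG (5.77%, beside 1.77% of all counted genes called lower). *Flnc*, which encodes an actin crosslinker, filamin C, had normalized counts of 238, 254, 276 and 259.9 in WT CSPG and 179, 237, 172 and 215 in KO CSPG (log2 fold change -0.37 ± 0.09 SE, limma adjusted p = 0.0259). *Sorbs2*, an adaptor of the vinexin family that binds vinculin, had 1270, 1222, 1252 and 1163 against 1051, 1076, 1106 and 1029 (-0.20 ± 0.04 SE, limma adjusted p = 0.00443). In both genes the groups did not overlap. *Flna*, which encodes filamin A and had 4746 to 4964 in WT CSPG, was at -0.05 (limma adjusted p = 0.457). *Flnc* was not called without WT CSPG B, WT CSPG C, KO CSPG A or KO CSPG C (limma adjusted p from 0.0510 to 0.106), whereas *Sorbs2* was called with any single library left out; 0 of the 3 were called with a variance prior without a trend or with the Y-linked covariate.

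The other 49 of these genes did not pass. Of the 52, 36 were below 0 and 16 above (69.2% below, against 50.1% of all counted genes), with a median log2 fold change of -0.02; 7 were without overlap (13.5%, beside 9.24% of all counted genes), 6 lower (background 5.20%) and 1 higher (background 4.04%). The latter was *Cd47*, an integrin-associated membrane protein gene, at 0.09 (limma adjusted p = 0.176). Among the lower ones were *Trip6*, a zyxin relative, at -0.33 (limma adjusted p = 0.0806), and *Palld*, which encodes the actin bundler palladin, at -0.12 (limma adjusted p = 0.269).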

How the data were processed

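Poly-A RNA of 18 cultures was sequenced as 50-base single reads. The authors deposited a table of normalized counts, a signal made of reads divided by a size factor per library (DESeq2 on Galaxy; mm10 per the processing notes). Aligner, counting program and strand setting are not given in the sources used here. The authors also deposited their log2 fold change, its standard error, the Wald score, p-values and adjusted p-values, which were not used. It covers 8 libraries, WT CSPG A to D and KO CSPG A to D, and 12012 genes, none with a mean under 40.7; 10099564 to 11647202 reads per library limit low genes most.

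Values were tested as log2(value + 1), a scale that understates changes of low genes, with limma 3.58.1 in R 4.3.3 (trend and robust, n = 4 per group, Benjamini-Hochberg over 12012 genes). The 459 genes on X or Y or pseudogenes were not counted. The script was tested on simulated data. The 45 genes, their roles, the 74 other adhesion genes and the marker lists were chosen with earlier results of these data known. Values per library are given for integrin subunits, *Tln1*, genes called or without overlap, the highest genes per kb of each role and, after their values were seen, *Tln2*, *Parva* and *Src*; of the other adhesion genes, called ones are described. Replicates are compared as separate preparations. The values of a library are whole multiples of 1 step (largest deviation 5.46e-11 of a read), which gives the read totals. Count models had been planned and were not run; only the normalized values were tested. Alternatives were other pseudocounts, scaling, filter and variance priors, a replicate block, a Y-linked covariate and leaving out each library. Coordinates count from 1. Exon overlaps were taken from GENCODE exons within the deposited ends of each gene, and 32 of the 42 genes had the same coordinates there. *Cd47*, *Trip6*, *Palld*, *Flna*, *Olig1*, *Olig2*, *Vim*, *Col1a1* and *Neurod6* were named after their values were seen. The values of 1 called gene are not reported here.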

Additional observations from a re-analysis of the deposited data

Results flagged for a closer look

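In each group of 4 libraries, the highest or lowest library was compared with the others by Dixon's ratio for *Fibcd1*, the 42 adhesion genes and the 3 other adhesion genes called. Of 92 groups examined, 6 held a library that stood apart, where chance alone gives about 4.6.

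*Vcl* was at 239 normalized counts in WT CSPG D, with the other WT CSPG libraries at 259 to 260.2. *Actn4* was at 1456 in KO CSPG C, with the others at 1419 to 1424. *Lpp* was at 143 in KO CSPG B, with the others at 100.5 to 108. *Fyn* was at 4116 in WT CSPG C, with the others at 3996 to 4008. *Git2* was at 499 in WT CSPG A, with the others at 542 to 547. *Fibcd1* was at 182 in WT CSPG D, with the others at 54.3 to 70.4. The library that stood apart for *Vcl* and *Git2* was the WT CSPG library nearest to KO CSPG. For *Actn4* it was the KO CSPG library nearest to WT CSPG, and for *Lpp* it lay above all WT CSPG libraries. For *Fyn* and *Fibcd1* it was the WT CSPG library farthest from KO CSPG.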

How the results depend on the processing

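Other pseudocounts, upper-quartile scaling, a minimum mean of 100 and a prior without robust estimation left *Ptk2b* as the only adhesion gene called and the same 3 other adhesion genes called, *Flnc* and *Sorbs2* among them. Without a trend of the prior variance, 73 of all counted genes were called in place of 327, and 0 of the adhesion genes (0 higher) and 0 of the other adhesion genes; *Ptk2b* then had a limma adjusted p of 0.177 and 12 genes in place of 14 were lower at an unadjusted p under 0.05. With the Y-linked covariate, of which genotype explains 89.8% of the variance, 2 of all counted genes were called, 0 of the adhesion genes, 0 higher and 0 of the others; 5 were lower and 0 higher at an unadjusted p under 0.05, the median log2 fold change was -0.14, and *Ptk2b* was at 0.54 (limma adjusted p = 0.724). Leaving out each library gave 0 to 2 adhesion genes called, 0 to 1 higher and 0 to 2 lower (*Parva* and *Vcl* without WT CSPG D), 8 to 13 without overlap (13 without WT CSPG A or KO CSPG B), 2 to 3 other adhesion genes called, 8 to 16 lower and 1 to 3 higher at an unadjusted p under 0.05, medians of -0.08 to -0.04 and 177 to 550 of all counted genes called. Upper-quartile scaling turned 122 higher and 205 lower calls into 171 and 169, shifting the median of all genes by 0.01. Whether the library letters pair the genotypes could not be told. The r of deviations between the WT CSPG and KO CSPG libraries of a letter was -0.07, 0.10, 0.27 and -0.01 for A to D. For WT CSPG B and C the highest r was with the KO CSPG library of the same letter, and for A and D with another letter. With a replicate block 404 of all counted genes were called in place of 327, and 1 adhesion gene, *Ptk2b* (limma adjusted p = 0.0230). Of the values recomputed under an alternative, 769 stayed, 17 lost and 2 gained a call, 50 moved and 0 reversed with a call. A value stayed if it kept its side of the threshold or lay within 1 SD, and a count if it was near the main count. The cause was not tested. The planned edgeR and DESeq2 fits on reads worked back from the normalized values were not run. Genes with a mean under 40.7 are outside the table.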
